A study of Mus musculus with 10 samples.

Results

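Autophagy delivers cytoplasm and worn organelles to the lysosome. A membrane sheet is started by the ULK1 and class III PI3-kinase complexes, grows while ubiquitin-like proteins are conjugated to it, takes in cargo through receptors and fuses with a lysosome, where acid hydrolases digest the content at a pH that a proton pump maintains. The heart uses the pathway to turn over mitochondria and sarcomere proteins, and inherited loss of LAMP2 or of the acid glucosidase GAA causes storage cardiomyopathies in humans. Described here are the transcripts of 34 genes of this machinery, chosen by name: 6 of initiation and membrane nucleation, 9 of conjugation, 3 cargo receptors, 7 hydrolases, 3 lysosomal membrane proteins, 2 transcription factors and 4 subunits of the proton pump. The table of 14626 genes held 33 of them. Atp6v0c, a subunit of the membrane sector of the pump, was not analysed here.

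RNA was sequenced from hearts of 14-day-old mice on a C57BL/6 background. There were 5 wild-type (WT) mice and 5 mice with a knockout of Lmna, the gene of lamins A and C, on both alleles (Lmna -/-, called Lmna KO here). How the allele was made is not given in the labels, which name no treatment. The RNA is that of bulk heart tissue, so in every result below fewer cells of a type and less RNA per cell cannot be told apart. Values are signal units, that is, CPM scaled to the effective library size. The libraries held 15259545 to 22146030 reads each. Reads per member and library ran from 190 for Atg14 in knockout 2 to 40941 for Sqstm1 in knockout 5. All 33 passed the filter on low values, which kept the 12855 genes whose signal averaged 1 or more.

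Lmna (chromosome 3, 88481148 to 88503352 in the mouse build mm10) was 22.1 to 48.9 in the knockouts and 102.3 to 110.1 in WT hearts. Every library labelled as a knockout was thus lower than every WT library. The highest knockout value was in knockout 5, 46.2% of the WT mean, and the lowest in knockout 2, 20.9%. Knockout 5 stood apart: its mean correlation with the WT libraries was 0.905, against 0.962 for knockout 2 and 0.982 to 0.985 for knockouts 1, 3 and 4. The log2 change of each member is therefore given with and without it. Summed signals of 10 cardiomyocyte markers were 154196 to 172143 in WT hearts, 92383 in knockout 2, 85495 in knockout 5 and 131486 to 155021 in the other knockouts, and those of 8 fibroblast markers were 4703 to 5926 in WT hearts, 1980 in knockout 5 and 4138 to 6065 in the other knockouts. The sum of 10 macrophage markers, one of them the lysosomal protein gene Cd68, was 325 to 374 in WT hearts, 483 in knockout 2, 239 in knockout 5 and 352 to 374 in the other knockouts. For 8 endothelial markers it was 1854 to 1921 in WT hearts, 1171 in knockout 2 and 1753 to 1907 in the other knockouts. For the 4 erythroid and platelet markers in the table it was 76.0 to 129 in WT hearts, 33.7 in knockout 5 and 73.3 to 144 in the other knockouts. The mean signal of each of these markers was at least 1, and the part of cell composition in the results below was not tested.

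In WT hearts the level of the members, as signal per kilobase of annotated exons, ran from 1.71 for Tfe3, a transcription factor, to 325 for Ctsd, the aspartic protease cathepsin D. Map1lc3a, one of the ubiquitin-like proteins that coat the autophagosome, followed Ctsd with 257, and Lamp1, an abundant lysosomal membrane glycoprotein, had 149. Then came Sqstm1 with 82.3, Gabarap with 78.8 and Ctsb with 65.5. At the low end of the same scale, above Tfe3, the levels were 2.34 for Mcoln1, 2.51 for Atg7 and 3.11 for Atg14. The exon length joins all annotated transcripts of a gene, which understates genes with rarely used long exons.

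WT hearts were alike in these genes and knockout hearts were not. The coefficient of variation over 5 WT hearts was 1.86% to 11.8% per gene, with a median of 5.18%, and over 5 knockout hearts it was 5.68% to 109.8%, with a median of 16.6%. It was larger in the knockouts for 33 of 33 members and for 90.2% of all genes tested. Among knockouts 1 to 4 the median was 13.0%, and the variation was larger than in WT for 30 of 33 members and for 77.4% of all genes tested. The knockout farthest from the WT mean was knockout 5 for 19 members and knockout 2 for 12, as it was for 57.9% and 28.7% of all genes.

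**Figure D1:**
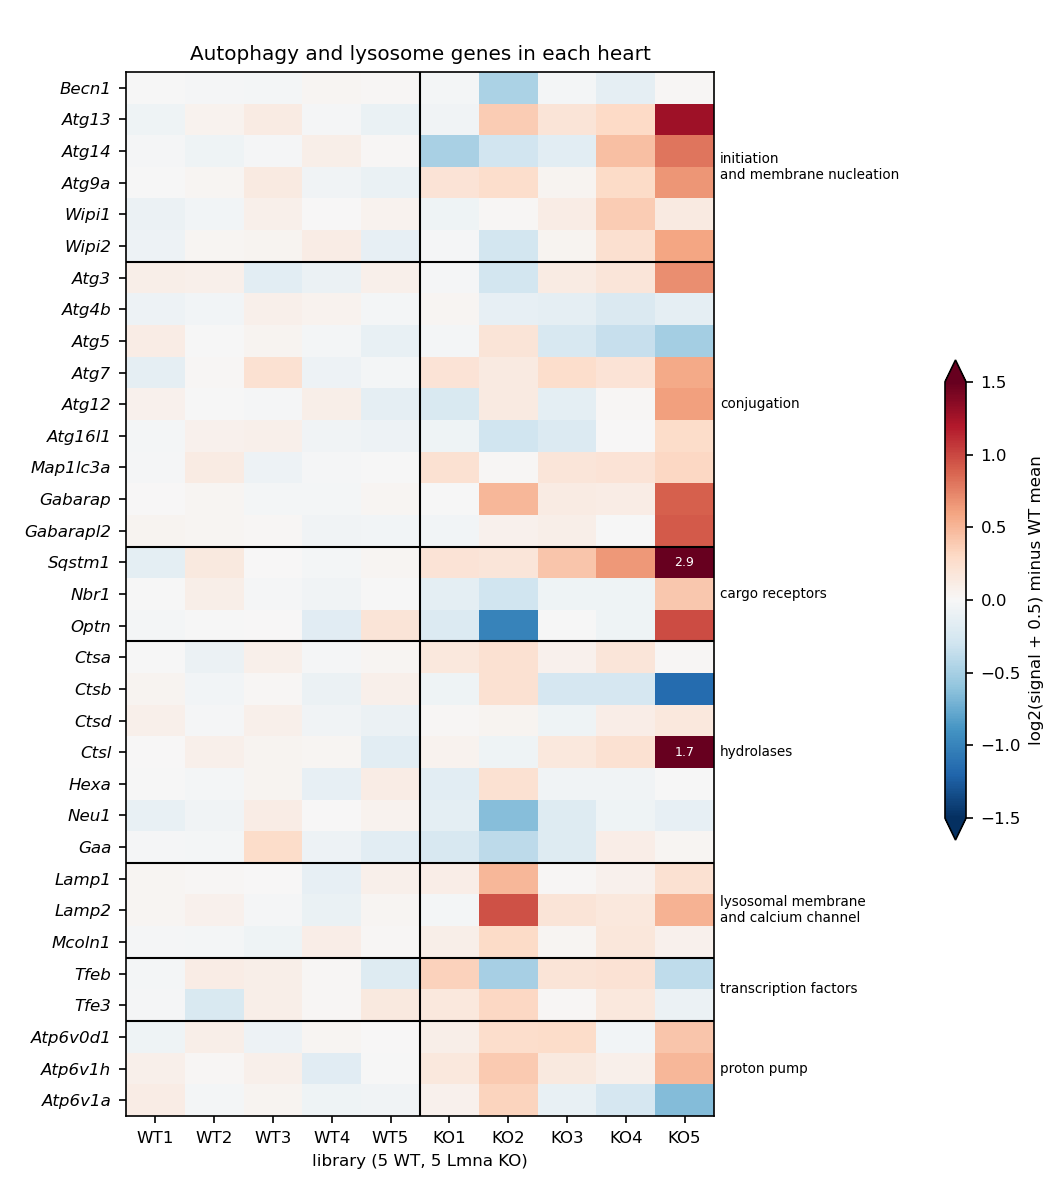
Log2(signal + 0.5) of each member (rows, by role) in each library (columns) minus the mean of the 5 WT libraries; values beyond 1.5 are written in the cell. WT columns are pale throughout, and the strongest colours are in knockout 5, with Sqstm1 at 2.9 and Ctsl at 1.7, and in knockout 2.

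With all libraries, 0 of 33 members passed the test in either direction (limma over 12855 genes, Benjamini-Hochberg adjusted p under 0.05), where 0.202% of all genes passed. The smallest adjusted p among the members was 0.186, for Atg9a. At an unadjusted p under 0.05 there were 3 members, Atg9a, Atg7 and Atp6v1h, all with higher means in the knockouts, against 20.8% of all genes. The edgeR quasi-likelihood test on whole reads recovered from the values also called 0 members, with 7 at an unadjusted p under 0.05 and 0.156% of all genes called. DESeq2 called 0, with 7 at an unadjusted p under 0.05 and 6.15% of all genes called, but it gave no p-value for Sqstm1 (log2 change 1.36). The authors' deposited table holds 1 member with a false discovery rate under 0.05, Sqstm1 (log2 ratio 1.35, FDR 0.0361), where 5.52% of its genes lie under that threshold.

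The log2 changes of the members ran from -0.30 for Ctsb to 0.87 for Sqstm1. Their median was 0.12 with all libraries and 0.027 without knockout 5, beside -0.0097 and -0.013 for all genes tested, and 21 of 33 were above 0, where this held for 48.6% of all genes. Without knockout 5 it was 20 of 33, against 47.4%. Without knockout 5, 0 of 33 members passed while 4.98% of all genes did, and 7 members had an unadjusted p under 0.05 (limma), against 22.5% of all genes. The member nearest to the threshold was then Sqstm1 (adjusted p = 0.0676). Without both knockouts 2 and 5, 2 members rose, Sqstm1 and Map1lc3a, and 0 fell (limma), while 10.7% of all genes passed, 4.24% higher and 6.42% lower. Knockouts 2 and 5 were the least correlated with the WT libraries in these same data. Calls from the fit without them are therefore not independent of the values. All 5 knockouts lay above all WT hearts for 1 member, Sqstm1, and below them for 0. This was so for 4.07% and 6.18% of all genes tested. Knockouts 1 to 4 lay above all WT hearts for Sqstm1, against 4.89% of all genes, and below them for 2 members, Becn1 and Nbr1, against 7.02%.

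**Figure D2:**
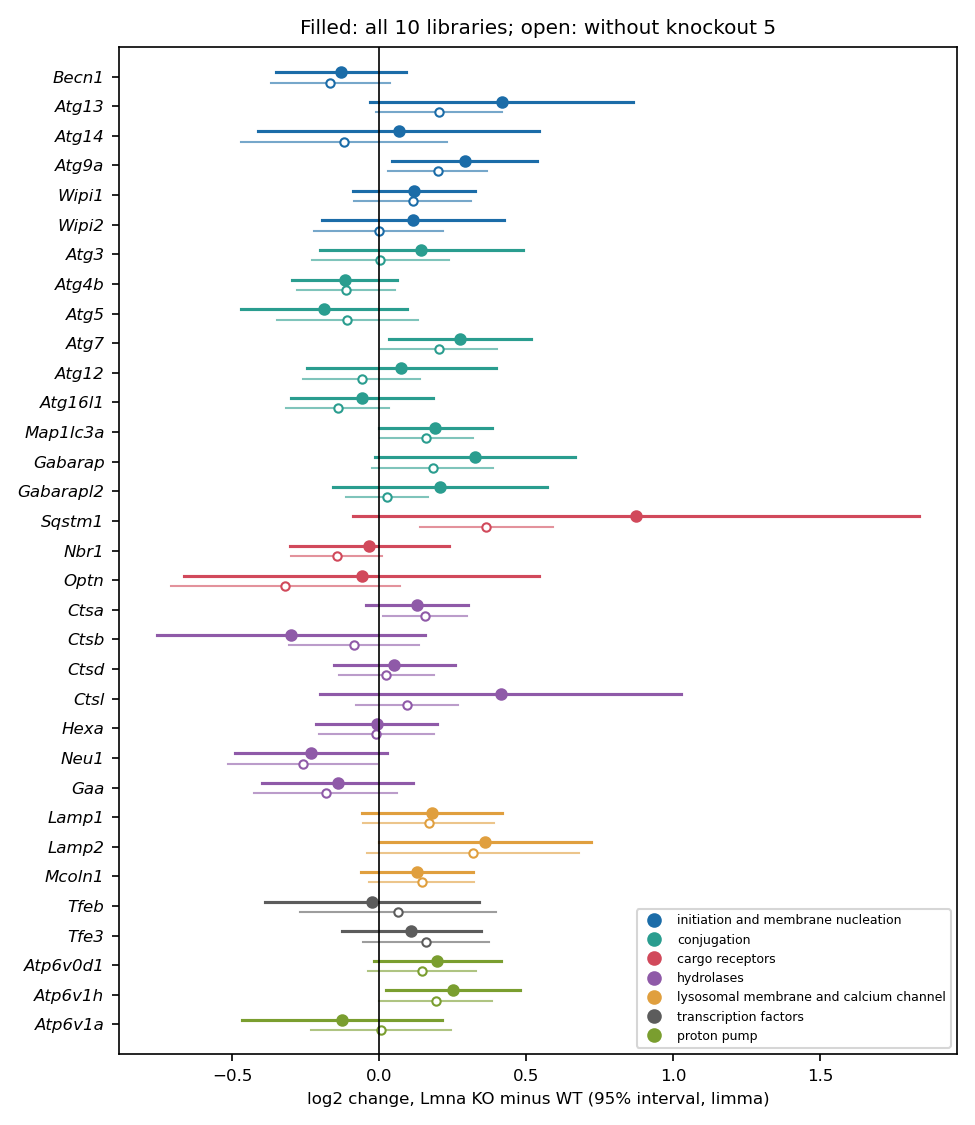
Log2 change of each member, Lmna KO minus WT, on the log2(signal + 0.5) scale with its 95% interval from limma; filled points use all 10 libraries and open points leave out knockout 5. With all libraries the intervals include 0 except for Atg9a, Atg7 and Atp6v1h, and those of Sqstm1, Ctsl and Atg13 narrow when knockout 5 is left out, with points nearer to 0; the interval of Sqstm1 is then 0.14 to 0.59.

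Of the initiation genes 0 of 6 passed. With all libraries 5 of 6 had log2 changes above 0, with a median of 0.12, and without knockout 5 it was 3 of 6, with a median of 0.056. Atg9a, the lipid scramblase whose vesicles seed the new membrane (chromosome 1, 75180861 to 75192010), had signals of 74.5, 76.4, 82.1, 72.1 and 69.5 in WT hearts 1 to 5 and 86.2, 90.01, 77.1, 91.2 and 118 in knockouts 1 to 5. Knockouts 1, 2, 4 and 5 lay above every WT heart and knockout 3 lay among them. Its log2 change was 0.29 (95% interval 0.043 to 0.54, limma adjusted p = 0.186). Part of its annotated exons is shared with Ankzf1 and Gm29253, 31.8% of the bases on the same strand and 0.798% on the other. Reads may have been split between these genes.

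Atg13, the adaptor of the ULK1 kinase complex (chromosome 2, 91674612 to 91710592), had signals of 24.2, 26.1, 27.6, 24.9 and 23.6 in WT hearts 1 to 5 and 24.2, 33.1, 28.9, 31.2 and 61.6 in knockouts 1 to 5. Knockout 5 was 2.43 times the WT mean, knockouts 2, 3 and 4 lay above the WT range by less, and knockout 1 lay inside it. The log2 change was 0.42 (95% interval -0.03 to 0.86, limma adjusted p = 0.262), and 0.20 (95% interval -0.012 to 0.42, limma adjusted p = 0.249) without knockout 5. Atg14, the subunit that directs the class III PI3-kinase to autophagy, had signals of 13.3, 12.8, 13.3, 14.3 and 13.6 in WT hearts 1 to 5 and 9.43, 10.9, 12.03, 18.6 and 23.9 in knockouts 1 to 5. Knockouts 1 to 3 lay below all WT hearts and knockouts 4 and 5 above them, so the change of 0.067 (limma adjusted p = 0.878) is the mean of opposite deviations.

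Becn1, the scaffold of the same PI3-kinase complex, was 67.6 ± 1.26 in WT and 62.3 ± 7.998 in Lmna KO (SD, n = 5 each), and 48.7 in knockout 2, the lowest value. Knockout 5 lay among the WT hearts. Its exons share 43.9% of their bases with Cntd1 on the other strand, and whether the authors counted by strand is not given in the sources used here. Wipi1 and Wipi2, which bind the phosphoinositide made by that complex, had log2 changes of 0.12 and 0.12 (limma adjusted p = 0.473 and 0.647). Wipi1, which had the highest mean signal in this group, had signals of 77.6, 80.2, 86.6, 82.7 and 85.5 in WT hearts 1 to 5 and 79.1, 83.6, 89.4, 107 and 90.7 in knockouts 1 to 5. The highest of these was in knockout 4, knockouts 3 and 5 lay just above the WT range, and knockouts 1 and 2 lay inside it. Without knockout 5 the log2 changes were 0.20 for Atg9a, 0.11 for Wipi1, -0.0019 for Wipi2, -0.12 for Atg14 and -0.17 for Becn1 (limma adjusted p from 0.154 to 0.994 over the initiation genes).

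The conjugation genes make and attach the ubiquitin-like coat, and 0 of 9 passed, with a median log2 change of 0.14 that was 0.0047 without knockout 5. Map1lc3a (chromosome 2, 155276364 to 155278073), an LC3 protein that is joined to phosphatidylethanolamine on the growing membrane, had signals of 298, 329, 287, 300.2 and 300.3 in WT hearts 1 to 5 and 354, 307, 344, 349.8 and 377 in knockouts 1 to 5. Knockouts 1, 3, 4 and 5 lay above every WT heart and knockout 2 inside their range. Its log2 change was 0.19 (95% interval -0.0018 to 0.38, limma adjusted p = 0.241). It was 0.16 without knockout 5 (limma adjusted p = 0.215). Without knockouts 2 and 5, the hearts least correlated with WT, Map1lc3a rose by 0.21 (95% interval 0.088 to 0.32, limma adjusted p = 0.0348).

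Gabarap (chromosome 11, 69991370 to 69994949) and Gabarapl2 belong to the other branch of the same protein family, which acts later, in closure and fusion. Gabarap had signals of 146, 148, 142, 142 and 148 in WT hearts 1 to 5 and 145, 205, 158, 158 and 271 in knockouts 1 to 5. Knockout 5 was 1.87 and knockout 2 1.41 times the WT mean, knockouts 3 and 4 lay above the WT range by less, and knockout 1 lay inside it. This gave a log2 change of 0.33 (95% interval -0.015 to 0.67, limma adjusted p = 0.251), and of 0.18 without knockout 5 (limma adjusted p = 0.279). Gabarapl2 was 121 in knockout 5, 1.904 times the WT mean, while knockouts 2 and 3 were just above the WT range and knockouts 1 and 4 inside it. Its log2 change was 0.21 (limma adjusted p = 0.475), and 0.027 without that heart (limma adjusted p = 0.843).

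Atg7, the E1-like enzyme that activates both ubiquitin-like systems (chromosome 6, 114643097 to 114860614), had signals of 15.8, 17.5, 20.5, 16.4 and 17.1 in WT hearts 1 to 5 and 20.2, 19.2, 20.96, 20.2 and 25.95 in knockouts 1 to 5. Knockouts 3 and 5 lay above the highest WT heart, WT 3, and the others inside the WT range. It had a log2 change of 0.28 (95% interval 0.034 to 0.52, limma adjusted p = 0.194). Atg3, the E2-like enzyme for LC3, and Atg12, the ubiquitin-like partner of Atg5, were 1.63 and 1.54 times the WT mean in knockout 5, with log2 changes of 0.14 and 0.075 over all libraries (limma adjusted p = 0.608 and 0.782). Atg5 itself was lower there, at 0.698 times the WT mean, and below the WT range in knockouts 3, 4 and 5, for a log2 change of -0.19 (95% interval -0.47 to 0.093, limma adjusted p = 0.402). Atg4b, the protease that trims LC3 proteins before coupling, had a log2 change of -0.12 (limma adjusted p = 0.413) and lay below every WT heart in 4 of 5 knockouts. Atg16l1, which places the Atg12 and Atg5 conjugate on the membrane, had one of -0.057 (limma adjusted p = 0.781). Without knockout 5 the log2 change of Atg3 was 0.0047 and that of Atg12 -0.06, on the other side of 0 (limma adjusted p = 0.986 and 0.738). Those of Atg5, Atg4b, Atg16l1 and Atg7 were then -0.11, -0.11, -0.14 and 0.20 (limma adjusted p = 0.595, 0.418, 0.326 and 0.205).

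Among the cargo receptors, which bind ubiquitinated cargo and LC3 at once, Sqstm1 was above WT in all knockouts, and 0 of 3 passed. Sqstm1 encodes p62 (chromosome 11, 50200152 to 50210820), a receptor that is itself degraded by autophagy and whose gene is induced by oxidative stress. Its signals were 249.6, 306, 276, 270.1 and 281 in WT hearts 1 to 5 and 319, 312, 369, 432 and 2079 in knockouts 1 to 5. The lowest knockout, knockout 2, lay just above the highest WT heart, WT 2, and knockout 5 was 7.53 times the WT mean. The mean was 276 ± 20.2 in WT and 702 ± 771 in Lmna KO (SD, n = 5 each), and the log2 change 0.87 (95% interval -0.088 to 1.84, limma adjusted p = 0.273). Without knockout 5 it was 276 ± 20.2 over 5 WT hearts and 358 ± 55.4 over the 4 knockout hearts that remain (mean ± SD), a log2 change of 0.36 (95% interval 0.14 to 0.59, limma adjusted p = 0.0676). Without knockouts 2 and 5, the hearts least correlated with WT, Sqstm1 rose by 0.43 (95% interval 0.22 to 0.63, limma adjusted p = 0.0176). DESeq2 gave no p-value for it, and with the edgeR quasi-likelihood test its adjusted p was 0.169. The exons share 17.3% of their bases with Mrnip on the other strand.

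Optn, the optineurin receptor of damaged mitochondria, had signals of 55.7, 56.5, 57.1, 50.4 and 64.8 in WT hearts 1 to 5 and 49.2, 28.1, 56.3, 54.4 and 112 in knockouts 1 to 5. Knockouts 2 and 5 lay on opposite sides of all WT hearts, at 0.494 and 1.97 times the WT mean, knockout 1 lay just below the WT range, and knockouts 3 and 4 lay inside it. Over all libraries the log2 change of Optn was -0.059 (95% interval -0.66 to 0.54, limma adjusted p = 0.916), and without knockout 5 it was -0.32 (limma adjusted p = 0.317). Nbr1, a relative of p62, had signals of 256, 273, 254, 248.8 and 255 in WT hearts 1 to 5 and 233, 209, 245, 245 and 341 in knockouts 1 to 5. Knockouts 1 to 4 were below every WT heart and knockout 5 above, for a log2 change of -0.033 (limma adjusted p = 0.894) and of -0.14 without knockout 5 (limma adjusted p = 0.255).

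**Figure D3:**
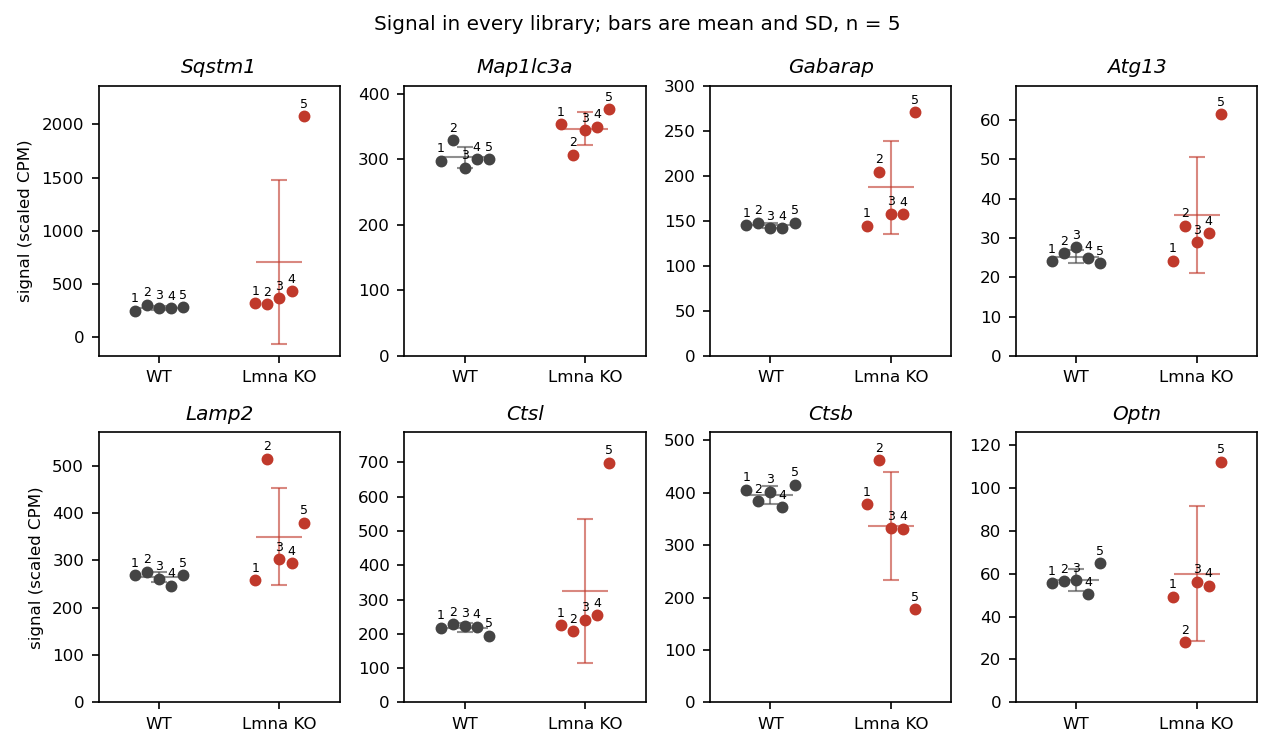
Signal (scaled CPM) of 8 members in every library, labelled by replicate number, with the mean and SD of each genotype (n = 5). Sqstm1, Ctsl and Atg13 in knockout 5, Lamp2 in knockout 2 and Ctsb in knockout 5 lie far from the other knockouts, and Optn has knockouts 2 and 5 on opposite sides of WT; these 8 panels were chosen after the values were seen.

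Of the hydrolases 0 of 7 passed, and their median log2 change was -0.0088. Ctsd, the most abundant member of all, had signals of 808, 757, 803, 736 and 719.9 in WT hearts 1 to 5 and 774, 787, 733, 816 and 852 in knockouts 1 to 5. Knockouts 4 and 5 lay above the WT range and the other knockouts inside it, for a log2 change of 0.051 (95% interval -0.15 to 0.26, limma adjusted p = 0.769). Its exons share 34.4% of their bases with Gm49369 on the same strand. The cysteine proteases Ctsl and Ctsb, cathepsins L and B, parted in knockout 5. Ctsl (chromosome 13, 64363214 to 64370306) had signals of 218, 228, 224, 221 and 195 in WT hearts 1 to 5 and 225, 208, 241, 255 and 699.5 in knockouts 1 to 5, and knockout 5 was 3.22 times the WT mean. Its exons share 26.8% of their bases with genes on the other strand and 6.09% with genes on the same strand. Ctsb (chromosome 14, 63122462 to 63145923) had signals of 406, 384, 402, 373 and 416 in WT hearts 1 to 5 and 378, 463, 333, 332 and 178 in knockouts 1 to 5, and knockout 5 was 0.449 of the WT mean. Their log2 changes were 0.41 (95% interval -0.20 to 1.03, limma adjusted p = 0.398) and -0.30 (95% interval -0.75 to 0.16, limma adjusted p = 0.409), and without knockout 5 they were 0.095 and -0.086 (limma adjusted p = 0.521 and 0.656).

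Neu1, the sialidase that trims lysosomal glycoproteins, had signals of 19.96, 20.8, 23.3, 21.7 and 22.5 in WT hearts 1 to 5 and 19.5, 13.8, 18.8, 20.6 and 19.9 in knockouts 1 to 5. Knockouts 1, 2, 3 and 5 lay below every WT heart and knockout 4 inside the WT range, and the log2 change was -0.23 (95% interval -0.49 to 0.026, limma adjusted p = 0.277). Ctsa, the protective protein that holds Neu1 in an active complex, had means of 126 ± 5.27 in WT and 138 ± 8.19 in Lmna KO (SD, n = 5 each) and a log2 change of 0.13 (limma adjusted p = 0.355). Gaa, the acid glucosidase that degrades lysosomal glycogen, and Hexa, a subunit of beta-hexosaminidase, had log2 changes of -0.14 and -0.0088 (limma adjusted p = 0.491 and 0.963). For Hexa the interval was -0.21 to 0.20. Without knockout 5 the log2 changes were 0.025 for Ctsd, -0.26 for Neu1, 0.16 for Ctsa, -0.18 for Gaa and -0.0096 for Hexa (limma adjusted p from 0.185 to 0.965 over the hydrolases).

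The lysosomal membrane genes had higher means in the knockouts, and 0 of 3 passed, with a median log2 change of 0.18. Lamp2 (chromosome X, 38401357 to 38456460), whose isoforms serve fusion and the import of single proteins, had signals of 269, 276, 261, 247 and 269 in WT hearts 1 to 5 and 258, 515, 303, 295 and 379.6 in knockouts 1 to 5. Knockout 2 was 1.95 times and knockout 5 1.44 times the WT mean, knockouts 3 and 4 lay above the WT range by less and knockout 1 inside it. Lamp2 had a log2 change of 0.36 (95% interval -0.00048 to 0.72, limma adjusted p = 0.24). Lamp1, its close relative, had signals of 406, 402, 400.4, 367 and 419 in WT hearts 1 to 5 and 425, 564, 403, 416 and 467 in knockouts 1 to 5. It too was highest in knockout 2, and knockouts 3 and 4 lay inside the WT range, for a log2 change of 0.18 (95% interval -0.058 to 0.42, limma adjusted p = 0.349). Mcoln1, the calcium channel TRPML1 of the lysosome, was 17.7 ± 0.78 in WT and 19.4 ± 1.44 in Lmna KO (SD, n = 5 each), with a log2 change of 0.13 (95% interval -0.061 to 0.32, limma adjusted p = 0.392). Without knockout 5 the values were 0.32 for Lamp2, 0.17 for Lamp1 and 0.14 for Mcoln1 (limma adjusted p from 0.277 to 0.353). Knockout 2 moved them more: without it the log2 change of Lamp2 was 0.21 and the log2 change of Lamp1 was 0.10, and without knockouts 2 and 5 the median of the 3 genes was 0.097.

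Tfeb and Tfe3 are basic helix-loop-helix factors that bind the E-box CACGTG in the CLEAR elements of lysosomal genes, and their activity is set by phosphorylation and nuclear entry, which transcript levels do not report. Tfeb (chromosome 17, 47737037 to 47792416) had signals of 37.7, 41.3, 40.8, 38.95 and 33.6 in WT hearts 1 to 5 and 48.8, 27.01, 44.1, 44.6 and 29.4 in knockouts 1 to 5. Knockouts 1, 3 and 4 lay above every WT heart, and knockouts 2 and 5, the same hearts that stood apart above, lay below every WT heart. The log2 change was -0.024 (95% interval -0.39 to 0.34, limma adjusted p = 0.943), 0.064 without knockout 5 (limma adjusted p = 0.841) and 0.25 (95% interval 0.083 to 0.42, limma adjusted p = 0.0593) without knockouts 2 and 5. Tfe3 was 15.8 ± 1.54 in WT and 17.1 ± 1.83 in Lmna KO (SD, n = 5 each), with a log2 change of 0.11 (limma adjusted p = 0.564), and of 0.16 without knockout 5 (limma adjusted p = 0.361). Neither passed.

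The E-box was looked for in the RefSeq promoter windows of build GRCm38.p6, which reach from 250 bases before to 50 after a start. CACGTG, which reads the same on both strands, was present in at least 1 window of 12 of the 27 members with an entry, 44.4%. The share was 8.09% over all 27025 genes with a window and 21.0% over 105 other genes of the pathway. The 27025 genes were counted whether or not they were tested here, and the share over the genes tested was not computed. The full CLEAR palindrome, which is this core with GT before it and AC after it, was in the windows of 0 of the 27 members, of 0.37% of all genes and of 2.86% of the other genes. The 250 bases before the start are shown for the 2 lysosomal membrane genes with repeated E-boxes and for Sqstm1, the member farthest from WT, with CACGTG in capitals:
Lamp1 (chr8:13158911-13159160, plus strand): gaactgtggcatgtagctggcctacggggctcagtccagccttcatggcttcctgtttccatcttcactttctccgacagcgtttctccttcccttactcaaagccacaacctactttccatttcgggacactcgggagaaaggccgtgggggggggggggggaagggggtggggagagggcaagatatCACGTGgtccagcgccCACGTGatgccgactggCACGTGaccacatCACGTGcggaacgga
Mcoln1 (chr8:3500269-3500518, plus strand): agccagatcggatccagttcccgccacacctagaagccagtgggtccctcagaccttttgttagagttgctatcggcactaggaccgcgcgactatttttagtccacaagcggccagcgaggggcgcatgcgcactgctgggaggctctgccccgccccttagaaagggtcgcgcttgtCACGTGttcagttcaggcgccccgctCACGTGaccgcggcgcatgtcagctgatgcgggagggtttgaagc
Sqstm1 (chr11:50210821-50211070, minus strand): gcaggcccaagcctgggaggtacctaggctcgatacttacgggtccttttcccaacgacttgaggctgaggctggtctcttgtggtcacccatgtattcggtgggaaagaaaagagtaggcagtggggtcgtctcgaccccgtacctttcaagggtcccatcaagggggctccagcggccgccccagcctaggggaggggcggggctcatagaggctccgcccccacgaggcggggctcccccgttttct
The Lamp1 window held 4 copies and the Mcoln1 window 2, while the Sqstm1 window held 0. The 12 members with the motif had a median log2 change of 0.13 and the 15 with windows that lack it one of 0.12, and without knockout 5 these were 0.060 and 0.064. In knockout 5 the medians of the log2 difference from the WT mean were 0.19 and 0.52. These are descriptions of letters in a window, and binding was not measured.

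For the proton pump, 0 of the 3 measured members passed. Atp6v1h, the regulatory subunit of the cytosolic sector (chromosome 1, 5083173 to 5162549), had signals of 35.3, 33.9, 35.3, 29.8 and 33.3 in WT hearts 1 to 5 and 37.3, 44.2, 36.9, 35.2 and 47.3 in knockouts 1 to 5. Knockouts 1, 2, 3 and 5 lay above every WT heart and knockout 4 just inside the WT range, for a log2 change of 0.25 (95% interval 0.025 to 0.48, limma adjusted p = 0.204). Atp6v0d1, of the membrane sector, had signals of 34.4, 38.3, 34.1, 36.7 and 36.1 in WT hearts 1 to 5 and 38.05, 43.1, 43.4, 34.9 and 47.9 in knockouts 1 to 5. Knockouts 2, 3 and 5 lay above every WT heart and knockouts 1 and 4 inside the WT range, and its log2 change was 0.20 (95% interval -0.019 to 0.41, limma adjusted p = 0.27). Atp6v1a, the catalytic subunit and the pump member with the highest signal, had signals of 59.6, 54.04, 56.8, 52.97 and 53.5 in WT hearts 1 to 5 and 57.7, 69.9, 51.1, 46.3 and 35.00 in knockouts 1 to 5. Knockout 2 lay above and knockouts 3, 4 and 5 below the WT range, knockout 5 at 0.632 of the WT mean, so Atp6v1h and Atp6v1a stood on opposite sides of WT in that heart. Over all libraries Atp6v1a had a log2 change of -0.13 (95% interval -0.47 to 0.22, limma adjusted p = 0.653). Without knockout 5 the log2 changes were 0.19 for Atp6v1h, 0.14 for Atp6v0d1 and 0.0066 for Atp6v1a (limma adjusted p from 0.219 to 0.98).

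Other genes of the same steps were taken from a list of 131, of which 130 were tested. With all libraries 0 of 130 passed in either direction (limma), where 0.202% of all genes passed. At an unadjusted p under 0.05 there were 20 (limma), against 20.8% of all genes. The edgeR quasi-likelihood test called 0 and DESeq2 7, where they called 0.156% and 6.15% of all genes. The median log2 change of the 130 genes was 0.03. Without knockout 5, 4 rose and 1 fell (limma), where 2.27% of all genes rose and 2.71% fell. Rragd and Flcn, parts of the Rag GTPase machinery that places MTORC1 and TFEB on the lysosome, both rose. Rragd was 181 ± 7.73 over 5 WT hearts and 237 ± 34.2 over the 4 knockout hearts that remain (mean ± SD), a log2 change of 0.38 (95% interval 0.17 to 0.59, limma adjusted p = 0.0478). Flcn was 59.1 ± 3.28 over 5 WT hearts and 78.8 ± 9.802 over the 4 knockout hearts that remain (mean ± SD), a log2 change of 0.41 (95% interval 0.21 to 0.60, limma adjusted p = 0.0284). Npc2, which carries cholesterol out of the lysosome, was 51.4 ± 0.819 over 5 WT hearts and 62.4 ± 3.44 over the 4 knockout hearts that remain (mean ± SD) and rose by 0.28 (95% interval 0.14 to 0.42, limma adjusted p = 0.036). Cd63, a tetraspanin of late endosomes, was 26.8 ± 2.36 over 5 WT hearts and 35.9 ± 4.38 over the 4 knockout hearts that remain (mean ± SD) and rose by 0.41 (95% interval 0.19 to 0.63, limma adjusted p = 0.0406). All 5 knockouts lay above all WT hearts for each of these 4 genes. With all libraries their adjusted p-values were 0.106, 0.148, 0.111 and 0.11 (limma). Of the 130 genes tested, 7 had all knockouts above all WT hearts and 5 had all knockouts below them. Over all genes tested these shares were 4.07% and 6.18%.

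Fyco1, the adaptor that links autophagosomes to kinesin for transport along microtubules (chromosome 9, 123789500 to 123851899), was the gene that fell. Its signals were 550.5, 518, 512, 508 and 564 in WT hearts 1 to 5 and 361, 282, 375, 404 and 236 in knockouts 1 to 5. Every knockout lay below every WT heart, and knockouts 5 and 2 were lowest. Those hearts also had the lowest summed cardiomyocyte markers. The cardiomyocyte sums were 169719, 171091, 170998, 154196 and 172143 in WT hearts 1 to 5. They were 155021, 92383, 131486, 150324 and 85495 in knockouts 1 to 5. Knockouts 2, 3, 4 and 5 thus lay below every WT heart, and knockout 1 lay below every WT heart but WT 4. The part of cell composition was not tested. The log2 change of Fyco1 was -0.70 (95% interval -1.02 to -0.39, limma adjusted p = 0.0693) with all libraries and -0.59 (95% interval -0.81 to -0.37, limma adjusted p = 0.0127) without knockout 5. In the lists with no gene called, the genes with the highest mean signal over all 10 libraries were Rb1cc1 of the ULK1 complex (log2 change 0.23, limma adjusted p = 0.344), Map1lc3b, the close relative of Map1lc3a (0.36, 0.381), the mitophagy receptor Bnip3 (1.14, 0.237) and the pump subunit Atp6v1g1 (-0.002, 0.994). Bnip3 holds that place only through knockout 5: its WT mean was 123, below the 177 of Tax1bp1, another cargo receptor.

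Most of the large differences were in knockout 5. It is 1 heart, so its values have no replicate and no test. It lay above every WT heart for 21 of 33 members and below for 6, where the shares over all genes were 40.9% and 41.9%. It was at least 2-fold above the WT mean for 3 members, Sqstm1, Ctsl and Atg13, against 9.32% of all genes, and at least 2-fold below for 1, Ctsb, against 14.5%. Among the other genes of the pathway, and chosen after their values were seen, Bnip3 was 11.3 times, Gabarapl1 8.54 times and Atg101 5.99 times the WT mean. Bnip3 is a cargo receptor, Gabarapl1 a conjugation gene and Atg101 a subunit of the ULK1 complex. Bnip3 had signals of 116, 139, 111, 103 and 144 in WT hearts 1 to 5 and 126, 223, 181, 199.9 and 1382 in knockouts 1 to 5. Gabarapl1, an LC3 relative, had 45.7, 60.6, 49.6, 54.6 and 59.8 in WT hearts 1 to 5 and 51.01, 70.7, 74.6, 95.03 and 462 in knockouts 1 to 5. For both, knockouts 2, 3 and 4 also lay above every WT heart.

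**Figure D4:**
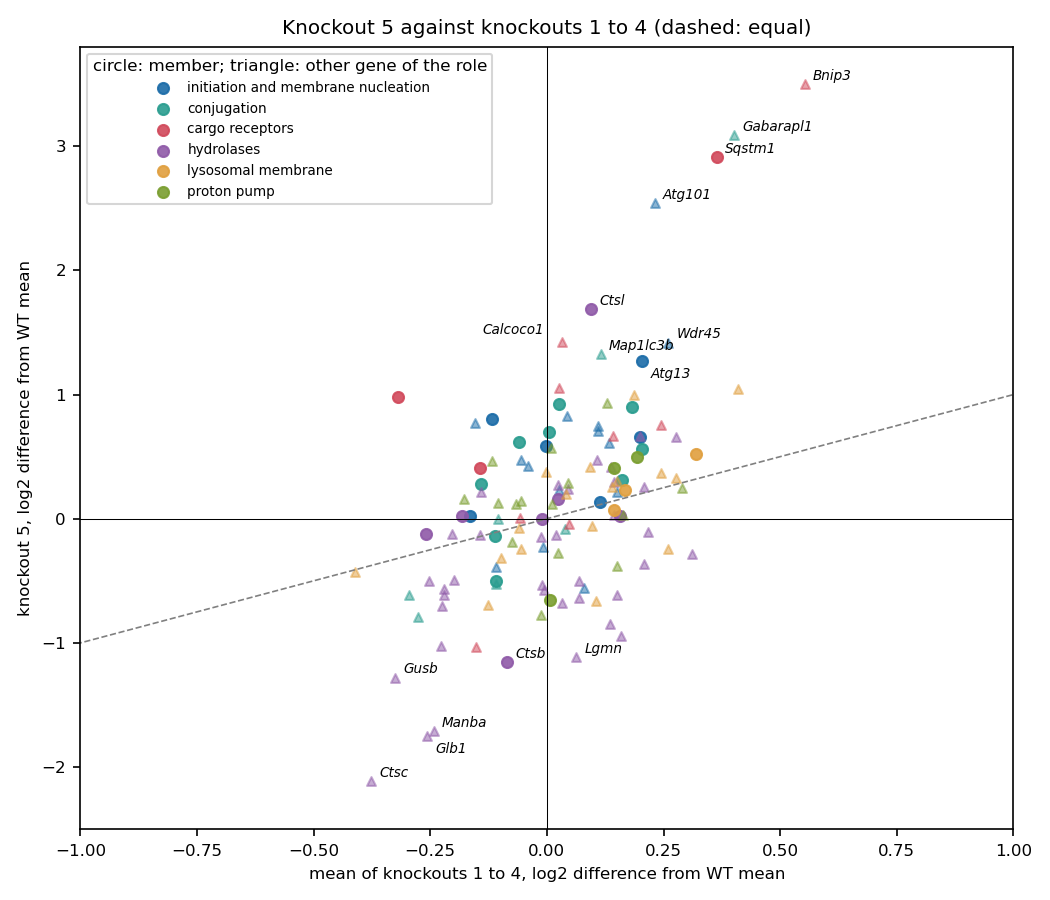
Log2 difference from the WT mean in knockout 5 (vertical) against the mean of knockouts 1 to 4 (horizontal) for the members (circles) and other genes of each role (triangles), on axes of different scale with the line of equality dashed. Bnip3, Gabarapl1, Sqstm1 and Atg101 are at the top and the hydrolases Ctsc, Glb1 and Manba at the bottom, all much farther from 0 in knockout 5 than in the other knockouts.

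In that heart the median levels differed by step. Over members and other genes as one list per role, the median log2 difference of knockout 5 from the WT mean was 0.60 for 20 initiation genes, 0.30 for 16 conjugation genes and 0.76 for 11 cargo receptors, and -0.28 for 43 hydrolases and their activators. It was 0.22 for 20 lysosomal membrane genes and 0.13 for 18 pump genes. The members alone differed from the added genes in some roles: the 7 member hydrolases had a median of 0.020, with 2 above and 2 below every WT heart, and the 36 added ones -0.50. For conjugation the medians were 0.56 over the 9 members and -0.084 over the 7 added genes. Of the initiation genes, 16 lay above every WT heart and 3 below. Of the hydrolases, 10 lay above and 24 below. The shares over all genes are those given above for knockout 5, and no test was made. The lowest, chosen after their values were seen, were Ctsc at 0.22, Glb1 at 0.284 and Manba at 0.298 of the WT mean, a dipeptidyl peptidase and a pair of glycosidases. Macrophage markers, listed because these cells are rich in lysosomes, were lower in the same heart, with the sum of 239 given above and a median log2 difference of -0.64. The medians were -1.61 for fibroblast, -1.49 for erythroid and platelet, -1.004 for cardiomyocyte and -0.026 for endothelial markers. The part of these cell types in the hydrolase values was not tested.

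**Figure D5:**
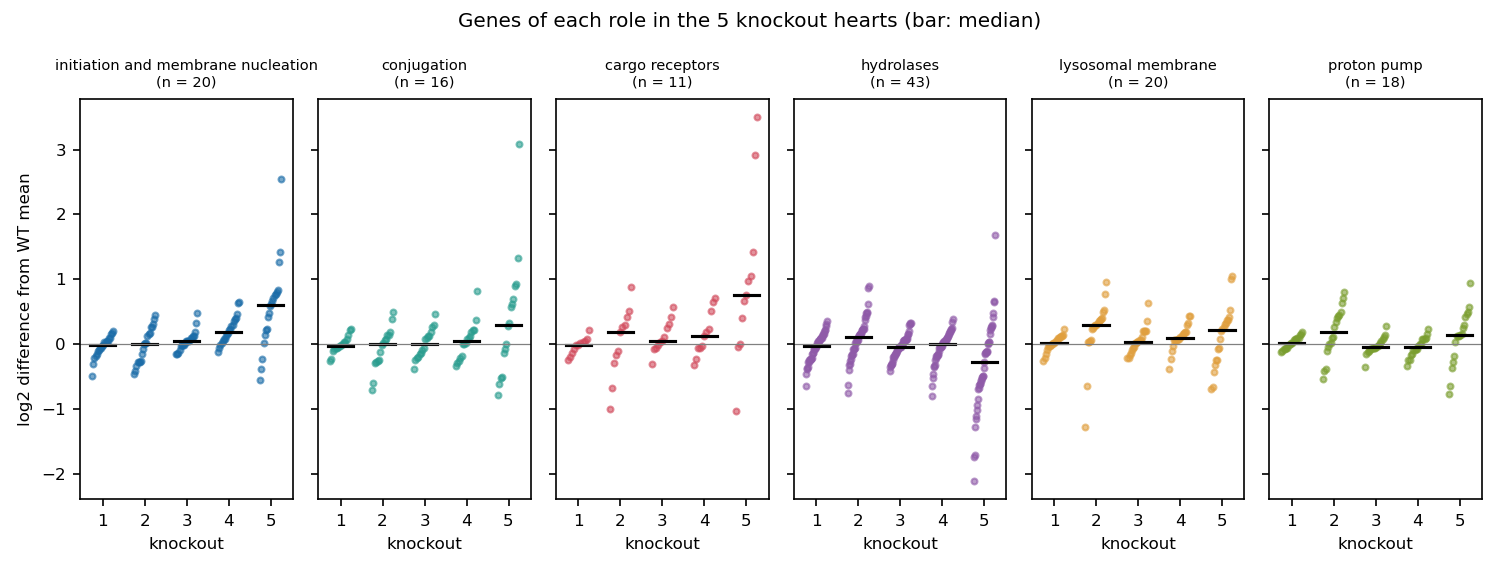
Log2 difference from the WT mean of each gene (points) and the median (bar) for members and other genes of a role together, in knockouts 1 to 5. Medians lie between -0.055 and 0.19 in knockouts 1, 3 and 4; in knockout 5 they are 0.60 for initiation, 0.76 for cargo receptors and -0.28 for hydrolases, and in knockout 2 the highest is that of the lysosomal membrane genes, 0.29.

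Knockout 2 lay above every WT heart for 17 of 33 members and below for 11, where the shares over all genes were 34.7% and 38.1%. The 20 lysosomal membrane genes had a median log2 difference of 0.29 from the WT mean, with 14 above every WT heart and 2 below, and the median was 0.18 for pump genes and cargo receptors alike, 0.11 for hydrolases and 0.0042 for initiation genes. Macrophage markers were higher in this heart, with a median log2 difference of 0.42. The medians were -0.84 for cardiomyocyte, -0.71 for endothelial, 0.43 for erythroid and platelet and 0.24 for fibroblast markers, and the part of these cell types was not tested. Atg3, Atg5, Atg14, Atg16l1, Wipi2, Optn, Nbr1, Ctsb and Atp6v1a stood on opposite sides of the WT range in knockouts 2 and 5. Atg9a, Atg13, Atg12, Gabarap, Gabarapl2, Sqstm1, Lamp1, Lamp2, Atp6v0d1 and Atp6v1h were above the WT range in both. Atg4b, Neu1 and Tfeb were below it in both. The shares over all genes were not computed for these groupings.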

How the data were processed

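Per the labels, RNA was isolated from hearts with a miRNeasy kit and made into libraries with a TruSeq kit, 1 library per mouse and 3 lanes per library. The submitters' processing notes name the tools TopHat2, Cufflinks and edgeR and the build mm10, without roles, versions, the counter or the use of strand. The authors deposited a table of signal values, by its sheet name CPM of the effective library size, and a table of their comparison with signal levels, log2 ratios, p-values and FDR.

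All values were whole multiples of 1 read (100% within 0.01 read), so reads were recovered for count tests. A total of 21 entries with dates for names, 0.134% to 0.204% of the reads, were left out. The main test was limma 3.58.1 (R 4.3.3) on log2(signal + 0.5) with an intensity trend, genotype as the only factor, a mean signal of at least 1 and two-sided Benjamini-Hochberg adjustment over 12855 genes. Its fold changes understate low genes. Where a library was left out, the same genes were tested. Alternatives were pseudocounts of 0.1 and 1, no filter or a minimum of 5, 2 other scalings, edgeR 4.0.16, DESeq2 1.42.0, the replicate number as a block and leaving out libraries. The functions were tested on simulated reads. Libraries were treated as separate mice, as the series' design text gives 5 mice per genotype.

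All members are named. Signals by library are given for the 10 members with the smallest p, the most abundant of each role and further members chosen after their values were seen. Of other genes, those called or, where none was, the most abundant of a list are named. Members and lists were chosen with earlier results of these data known. Exon lengths and overlaps are from GENCODE M21 (GRCm38, the assembly of mm10). Besides the overlaps given above, other genes share exon bases on the other strand with Ctsa (17.4%), Ctsb (12.8%), Hexa (12.8%) and Lamp1 (9.31%). Smaller shares on that strand are those of Atg14 (5.53%), Optn (1.95%) and Atp6v1h (1.30%).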

Additional observations from a re-analysis of the deposited data

Results flagged for a closer look

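Each genotype of the 33 members and 9 other named genes was searched for a library whose gap to its nearest neighbour exceeded 0.71 of the range of the 5 values. Chance gives about 1 such flag in 20 groups if the groups are independent. A flag was found in 10 of 84 groups, all in Lmna KO, 9 of them for knockout 5. That heart was farthest from the WT mean for 57.9% of all genes tested, so these groups are not independent. The share flagged over all genes was not computed, so the flags cannot be read as particular to these genes. Knockout 5 was far above the other knockouts for Sqstm1 (2079), Bnip3 (1382), Ctsl (699.5), Map1lc3b (479.6), Nbr1 (341.5), Flcn (177.2), Gabarapl2 (120.8), Atg13 (61.6) and Atg7 (26.0). Knockout 2 was far below them for Neu1 (13.8). Bnip3 was named for its mean signal over all libraries, which knockout 5 raised, so its value there was part of the choice and is not to be read against the rate of chance.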

How the results depend on the processing

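The count of members called was 0 under 19 of 20 alternatives. It was 2, both higher (Sqstm1 and Map1lc3a), with knockouts 2 and 5 left out together. DESeq2, among the 19, gave no p-value for Sqstm1. The count of the 130 other pathway genes called was 7 with DESeq2 and 12 without knockouts 2 and 5, where 6.15% and 10.7% of all genes were called. Over the leave-one-out fits it ran from 0 to 5, the 5 without knockout 5, where 4.98% of all genes were called. The median log2 change of the members was 0.091 to 0.15 when any library but knockout 5 was left out, 0.027 without knockout 5, 0.078 without knockouts 2 and 5 and 0.10 to 0.14 under the other scalings and tests. Over all genes the count of calls was 786 with DESeq2, 640 without knockout 5, 1370 without knockouts 2 and 5, 35 with the replicate block and 6 to 39 in the other leave-one-out fits, against 26. No scaling moved the median of all genes by over 0.1. Replicate numbers did not pair the libraries: deviations of same-numbered libraries correlated at 0.182, -0.134, 0.171, 0.12 and 0.03, and with the replicate block 0 members and 0 other genes were called, the same as without it.

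Of the members 24 kept their direction in all alternatives and 9 turned in at least 1. These 9 had log2 changes no larger than 0.13 and were not called in either direction. Turned values were, with edgeR and DESeq2, 0.088 and 0.089 for Optn, 0.0043 and 0.0035 for Hexa, and 0.021 and 0.019 for Tfeb. Atp6v1g1, which is not a member, turned too, with 0.028 under both. The log2 change of Atp6v1g1 was 0.00027 with median-of-ratios scaling. With each library left out in turn, log2 changes ran from -0.12 to 0.21 for Atg14, -0.0019 to 0.21 for Wipi2, -0.060 to 0.15 for Atg12, -0.14 to 0.0026 for Atg16l1, -0.14 to 0.033 for Nbr1, -0.32 to 0.18 for Optn, -0.067 to 0.029 for Hexa, -0.12 to 0.095 for Tfeb, -0.24 to 0.0066 for Atp6v1a and -0.12 to 0.095 for Atp6v1g1. Without knockouts 2 and 5 Atg14 was -0.062, Atg12 -0.12 and Tfeb 0.25.

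The 5 hearts per genotype limit the precision, and for the members with few reads counting error adds to the spread between hearts.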
